A study of Mus musculus with 8 samples.

Results

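Genes that sense and repair damaged DNA, 36 in all, were followed in the mouse small intestine 4 h after exposure to carbon ions. The members were the genes whose symbol, or an older alias of it, names a probe in the array files. Of the 36, 35 had a probe, among 31131 genes that had one, and 34 were bright enough to be tested, among 21806. No probe was found for 1 member, and the single probe for Brca1, a scaffold of recombination, was not well above background on any of the 8 arrays (6.92 to 13.5 intensity units). Probes for the tested members were the brightest of each gene. In total the members had 44 probes, and 8 members had several.

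The animals were female BALB/cA Jcl mice aged 8 weeks. They were injected in the peritoneum with saline, with FGF1 (fibroblast growth factor 1, a ligand of FGF receptors) or with the FGF1/CPP-C chimera, which contains FGF1, and the beam followed after 12 h of pretreatment. The 4 groups, each of 2 arrays sampled at 4 h, were 0 Gy saline (not irradiated), 8 Gy saline, 8 Gy FGF1 and 8 Gy FGF1/CPP-C. Neither protein was analysed here without irradiation, and while the sample labels give small intestine, the design text gives jejunum.

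Carbon ions leave clustered lesions and broken DNA ends. The kinases Atm, Atr and Prkdc answer to such ends, the Mre11a, Rad50 and Nbn complex holds them, and a chromatin platform built on phosphorylated H2afx recruits the enzymes that either rejoin the ends directly or copy the sequence back from the sister chromatid, which only cells that have replicated their DNA can do. Much of this response works by modifying proteins that are already present, while a smaller set of repair genes, Ddb2, Xpc, Polk and Rrm2b among them, is known, in human or mouse cells, for transcription driven by p53. In the intestine the dividing cells lie in the crypts, and the cells of the villus no longer divide.

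Levels are given as the processed signal in percent of the 75th percentile of the same array, which lay between 1735 and 2165 intensity units. Between 66.9% and 71.1% of the probes were well above background, and r between paired arrays of one group, taken across genes that are not independent replicates, was 0.982 to 0.994. Whether both arrays of a group stem from different mice is not in the labels. The p-values then describe array-to-array spread alone, and that spread may be technical. With 2 against 2 arrays a single gene's exact two-sided permutation test cannot go below p = 0.333, so the tests are limma fits over all genes, with fold changes on the log2 scale ± standard error. In bulk tissue, fewer cells of a type and less RNA per cell cannot be told apart. Absorptive enterocyte genes had median log2 levels from 6.15 to 7.02 in the 8 arrays, with 9 or all 10 of the markers well above background. Pancreatic acinar genes (12 of 15 listed measured) had a median of 5.29 in replicate 1 of 0 Gy saline and 2.78 in replicate 2 of 8 Gy saline. Their medians lay from -4.8 to -1.89 elsewhere. Stomach antrum genes (10 of 11 listed measured) were high in replicate 1 of 0 Gy saline (median 2.19), replicate 2 of 8 Gy saline (3.59) and replicate 1 of FGF1 (2.09), with medians from -5.81 to -2.19 elsewhere. These 3 arrays are called the antrum-high arrays here. The log2 of the summed antrum signal was 10.16, 10.22 and 10 in them, in that order. The other arrays of the same groups reached 9.66, 8.76 and 8.77, and the chimera arrays -0.068 and -0.57. Leaving out the antrum-high arrays therefore does not remove antrum transcripts from the saline and FGF1 groups. The part of antrum or pancreatic transcripts in the values was not tested.

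Promoter sequences are shown first for the member that passed the test, Polk. Others follow for 3 members whose mean lay above control after irradiation and whose window holds a word bound by E2F. E2F is the factor family that drives genes of the S phase. Of these members Bard1 overlapped the controls. Chek2 (1.2-fold the control) and Xrcc6 (0.877-fold) also carry such a word and are not shown. The sequences are the RefSeq windows of build GRCm38.p6, 250 bases before to 50 bases after a gene's start. They are printed in the direction of the gene, with capitals marking the E2F word on either strand.
Polk (chr13:96542530-96542829, minus strand): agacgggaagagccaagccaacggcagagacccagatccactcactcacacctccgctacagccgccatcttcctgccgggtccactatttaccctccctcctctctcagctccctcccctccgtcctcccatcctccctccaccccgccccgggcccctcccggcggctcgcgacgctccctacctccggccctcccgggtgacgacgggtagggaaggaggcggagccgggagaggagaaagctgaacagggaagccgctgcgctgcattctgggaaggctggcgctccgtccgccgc
Brca2 (chr5:150522371-150522670, plus strand): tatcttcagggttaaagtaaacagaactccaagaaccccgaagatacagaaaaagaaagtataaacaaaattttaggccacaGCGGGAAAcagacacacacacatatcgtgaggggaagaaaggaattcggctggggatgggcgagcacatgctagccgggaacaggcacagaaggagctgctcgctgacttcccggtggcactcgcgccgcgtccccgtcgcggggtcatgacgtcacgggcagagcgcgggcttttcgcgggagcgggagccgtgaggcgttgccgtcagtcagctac
Bard1 (chr1:71102923-71103222, minus strand): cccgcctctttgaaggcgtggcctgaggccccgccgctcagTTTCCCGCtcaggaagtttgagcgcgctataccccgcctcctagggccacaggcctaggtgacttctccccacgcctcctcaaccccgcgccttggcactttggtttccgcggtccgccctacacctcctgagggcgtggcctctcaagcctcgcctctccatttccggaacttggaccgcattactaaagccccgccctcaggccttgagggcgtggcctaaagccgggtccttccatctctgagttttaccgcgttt
Mdc1 (chr17:35841248-35841547, plus strand): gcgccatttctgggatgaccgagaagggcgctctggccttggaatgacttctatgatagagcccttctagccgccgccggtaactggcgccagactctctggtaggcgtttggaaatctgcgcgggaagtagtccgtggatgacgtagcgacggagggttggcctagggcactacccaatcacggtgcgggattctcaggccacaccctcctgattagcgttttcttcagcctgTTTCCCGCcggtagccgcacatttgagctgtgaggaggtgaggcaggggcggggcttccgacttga
The words searched on both strands were TTTGGCGC, TTTCCCGC, TTTGCCGC and TTTCGCGC, and a window was counted once however many words it held or however they overlapped. The promoter table held 27 of the 36 members, with 31 windows. An E2F word lay in 7 of these 31 windows (22.6%), against 744 of all 32851 windows (2.26%). They are windows of Brca2, Bard1, Mdc1, Chek2 and Xrcc6, and of 2 starts of the member that had no probe. In Mdc1 the word began 16 bases before the start, in Brca2 168 and in Bard1 209. The half-site bound by p53, matched by its published consensus, lay in 2 of the 31 windows (6.45%), those of Fanca and of another start of Polk, against 8.36% of all windows. A match of letters is a description and not a bound site.

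Irradiation was read from the mean of the 3 irradiated groups against 0 Gy saline, which uses 6 arrays against 2. The FGF1 and FGF1/CPP-C groups in that mean had also received a protein, and the controls had not. Beam and protein are therefore mixed in it. Only 8 Gy saline against 0 Gy saline compares the beam alone, and no member passed there (Polk, limma adjusted p = 0.120). Polk alone passed, 1 of 34 members at an adjusted p under 0.05, where 2.43% of the 21771 genes tested passed, so the count of members is close to the background. As many members lay above control as below it (17 each, where 42.5% of genes lay above), with a median log2 fold change of -0.0031, beside -0.045 over all genes. In 6 members every irradiated array lay above both controls (Chek2, Rad50, Mdc1, Brca2, Exo1 and Polk), and in 2 every one lay below (H2afx and Parp1), where the background was 10.6% of genes above and 12.3% below. At an unadjusted p under 0.05 there were 7 members higher and 2 lower, where the background was 9.32% higher and 11.3% lower.

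**Figure D1:**
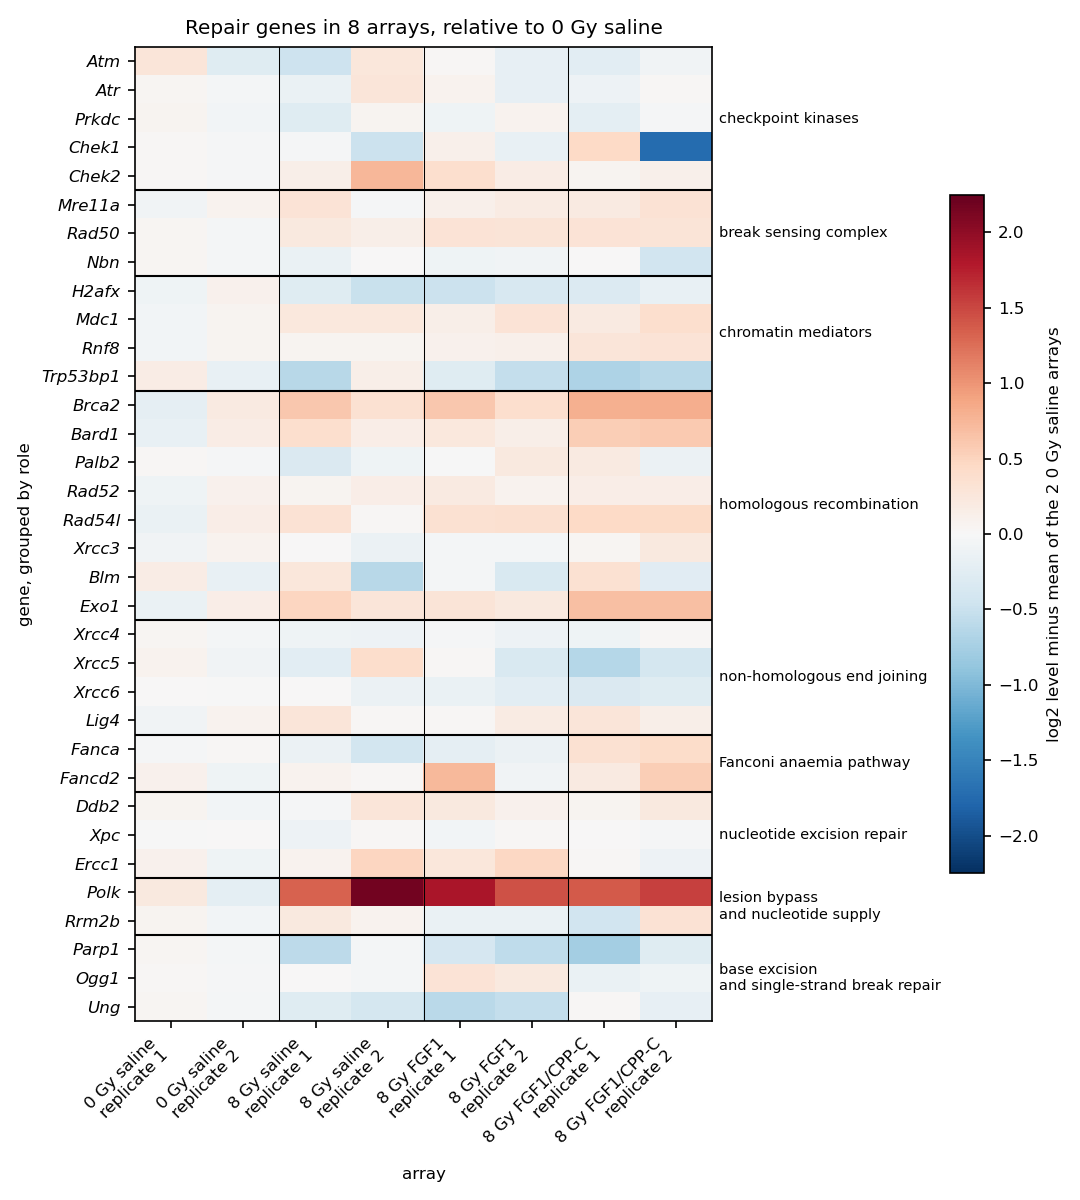
Heat map of the 34 tested members in the 8 arrays, grouped by role, where colour is the log2 level minus the mean of the 2 0 Gy saline arrays. Polk is high in all 6 irradiated arrays, Brca2 and Exo1 are moderately above control, and Chek1 is low in FGF1/CPP-C replicate 2.

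Polk encodes DNA polymerase kappa, which copies past bulky lesions that stop the replicative polymerases. Its level was 16.4% and 12.2% of the 75th percentile in 0 Gy saline, 35.4% and 63.4% in 8 Gy saline, 50.3% and 38.3% after FGF1, and 36.8% and 40.8% after FGF1/CPP-C. All 6 irradiated arrays lay above both controls, and the irradiated groups overlapped each other. The mean of the irradiated groups was 3.06-fold the control (95% interval 2.00 to 4.68, log2 fold change 1.61 ± 0.25, limma adjusted p = 0.0419). The probe lies at chr13:97251653-97251712 on the minus strand of mm9. A second Polk probe, at chr13:97256835-97256894, gave 4.83% and 4.14% in the controls and 8.25% to 10.1% in the irradiated arrays, a 2.05-fold difference with no overlap. Each irradiated group on its own stood above control without passing, 3.36-fold for saline (limma adjusted p = 0.120), 3.1-fold for FGF1 (limma adjusted p = 0.0837) and 2.74-fold for FGF1/CPP-C (limma adjusted p = 0.0770). Within slide 1 the mean difference was 2.46-fold and within slide 2 it was 3.80-fold, and with the replicate number, which is the slide, as a block the call was lost (limma adjusted p = 0.0681). Polk was also higher in the antrum-high array of each of the 3 groups that held one. Without those 3 arrays it was 3.08-fold the control, with a limma adjusted p of 0.278, a fit in which no gene of the array passed, 1 control array being left. The call was also lost without 0 Gy saline replicate 1 or 2 (limma adjusted p = 0.166 and 0.289), without FGF1 replicate 1 or 2 (0.105 and 0.0977) and without FGF1/CPP-C replicate 1 or 2 (0.109 and 0.108), while the log2 fold change lay between 1.40 and 1.68 without the FGF1, chimera or second control array and at 1.83 without the first.

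Rrm2b, the ribonucleotide reductase subunit induced by p53 that supplies nucleotides for repair, could hardly be read. Its brightest probe was well above background on 5 arrays with 21.8 to 38.5 intensity units, the other on 0 arrays, and both have array-file coordinates on chromosome 13 of mm9 while RefSeq places the gene on chromosome 15. The values give 0.988-fold the control (interval 0.709 to 1.38), and what these probes read was not tested.

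Among the nucleotide excision genes, which remove bulky lesions, no member passed. Ddb2, the damage-binding subunit that marks lesions in chromatin, was 1.10-fold the control (interval 0.913 to 1.33, limma adjusted p = 0.525). Xpc, which recognises the distorted helix, was 0.980-fold (interval 0.859 to 1.12), and Ercc1, a subunit of the nuclease that cuts on the far side of the lesion, was 1.14-fold (interval 0.905 to 1.44). Both Ddb2 and Xpc are known as p53 targets, chiefly from human cells, and neither interval reaches the fold seen for Polk. In a list of 19 measured p53 targets that holds no member, 16 passed upward in the same comparison, with a median log2 fold change of 1.44. Cdkn1a, the cell cycle inhibitor, was 1.96-fold the control (limma adjusted p = 0.0146), Mdm2, which degrades p53, was 2.28-fold (limma adjusted p = 0.0110) and Ccng1, cyclin G1, was 5.79-fold (limma adjusted p = 0.00556).

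**Figure D2:**
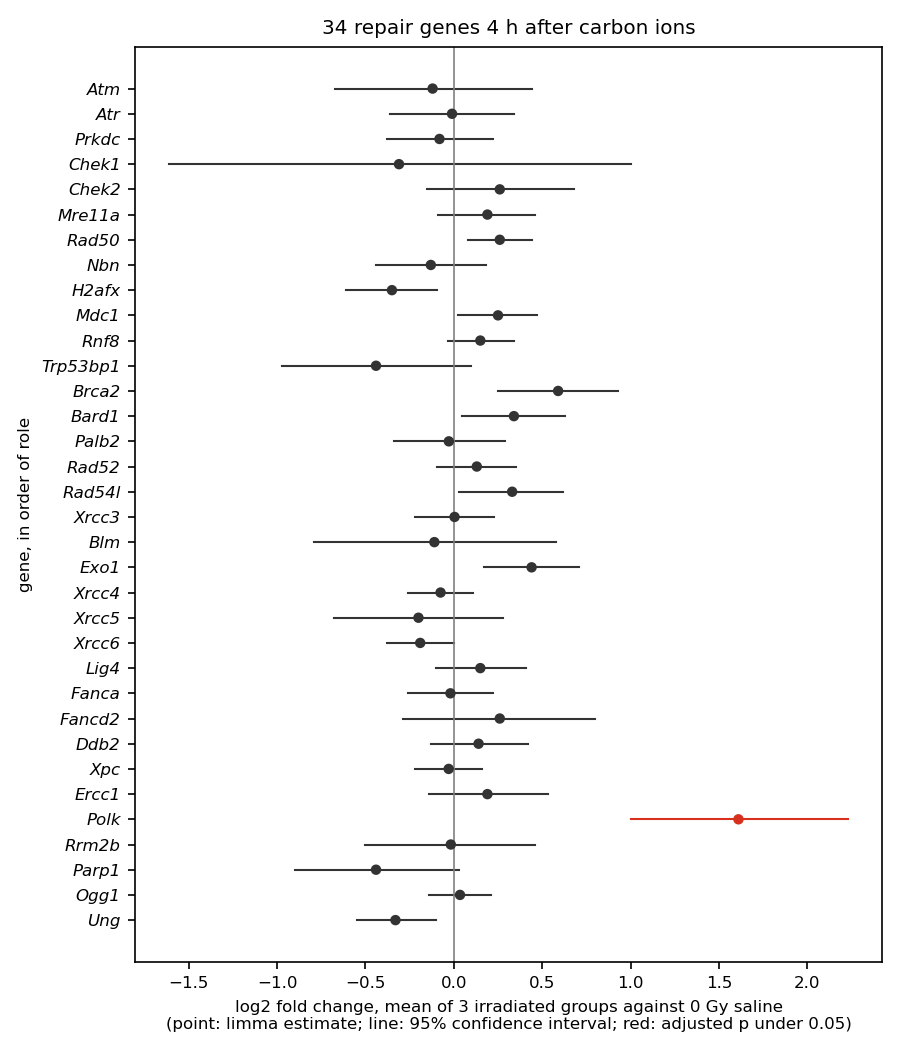
Log2 fold change of each of the 34 tested members, mean of the 3 irradiated groups against 0 Gy saline, with the limma estimate as a point and its 95% confidence interval as a line. Polk, in red, passed at 1.61, while the other estimates lie between -0.44 and 0.59 and 8 of their intervals leave out 0 without passing the adjusted threshold.

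Homologous recombination genes, which repair breaks by copying the sister chromatid, had a median log2 fold change of 0.23 over the 8 tested of 10, with 6 above control (42.5% of all genes were) and 2 below. Slide 1 alone gave a median of 0.39, against 0.072 for slide 2 alone. None passed, and 4 of the 8 had an unadjusted p under 0.05, all higher, as did 9.32% of all genes. The highest values of all 4 lay in the FGF1/CPP-C group. With 8 Gy saline alone against 0 Gy saline, 2 of the 8 were higher at an unadjusted p under 0.05, beside 4.88% of all genes.

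Brca2 is needed to repair breaks by recombination. It stood at 14.4% and 18.8% of the 75th percentile in 0 Gy saline, 25.0% and 20.7% in 8 Gy saline, 25.0% and 21.3% after FGF1, and 28.7% and 28.9% after FGF1/CPP-C. Every irradiated array lay above both controls and the 2 chimera arrays were the highest. The mean difference was 1.51-fold (0.59 ± 0.14, interval 1.19 to 1.91, limma adjusted p = 0.0902). On slide 1 it was 1.82-fold and on slide 2 1.25-fold.

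Exo1 is a nuclease that resects broken ends so that recombination can start. The arrays gave 23.5% and 29.1% in 0 Gy saline, 36.7% and 31.7% in 8 Gy saline, 32.1% and 30.4% after FGF1, and 42.0% and 41.8% after FGF1/CPP-C. Again no irradiated array fell within the controls, although the FGF1 arrays came near them. The mean of the irradiated groups was 1.36-fold the control (0.44 ± 0.11, limma adjusted p = 0.104), with 1.56-fold on slide 1 and 1.18-fold on slide 2.

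Bard1 is the partner that stabilises Brca1. Its brightest probe gave 21.4% and 27% in 0 Gy saline, 31.4% and 26.6% in 8 Gy saline, 28.5% and 26.5% after FGF1, and 35.1% and 36% after FGF1/CPP-C. The saline and FGF1 groups overlapped the controls and the chimera group did not. The mean difference was 1.26-fold (0.34 ± 0.12, limma adjusted p = 0.194). A second probe of Bard1 disagreed: it read 12.1% to 15.4% on slide 1 and 6.23% to 8.10% on slide 2 whatever the group, and 0.887-fold the control for irradiation. Which of the 2 probes follows the transcript was not tested.

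Rad54l remodels the filament during strand invasion. It gave 20.8% and 25.8% in 0 Gy saline, 29.2% and 23.8% in 8 Gy saline, 29.5% and 29.8% after FGF1, and 31.7% and 31.3% after FGF1/CPP-C. Only replicate 2 of 8 Gy saline, an antrum-high array, lay within the controls. The mean difference was 1.25-fold (0.33 ± 0.12, limma adjusted p = 0.206), 1.45-fold on slide 1 and 1.09-fold on slide 2.

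The other recombination members stayed nearer to control. Palb2, which joins Brca1 to Brca2, was 0.981-fold, Rad52, an annealing protein, was 1.09-fold, and Xrcc3, a recombination factor, was 1.00-fold. Blm, the helicase that dissolves crossed strands, was 0.928-fold and was higher on slide 1 than on slide 2 in all 4 groups, as were Chek1 and Rad50 and 13.6% of all genes. Their limma adjusted p lay between 0.480 and 0.984.

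The 4 recombination genes with an unadjusted p under 0.05 are known for expression in replicating cells, and lists for the cell cycle are given beside them. In the same comparison 11 of 14 measured mitosis genes passed, all lower, with a median log2 fold change of -0.88, and 3 of 17 DNA replication genes passed, all higher, with a median of 0.23. The 3 were Rrm2 (2.24-fold), a nucleotide supply gene, and Cdt1 (1.70-fold) and Cdc6 (1.69-fold), which license origins. Crypt base stem cell genes had a median log2 fold change of -0.34 with 0 of 8 passing, 2 of them lower at an unadjusted p under 0.05, and T cell and intraepithelial lymphocyte genes one of -0.41 with 0 of 11 passing and 3 lower unadjusted. The part of the cell cycle or of cell composition in the recombination values was not tested.

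**Figure D3:**
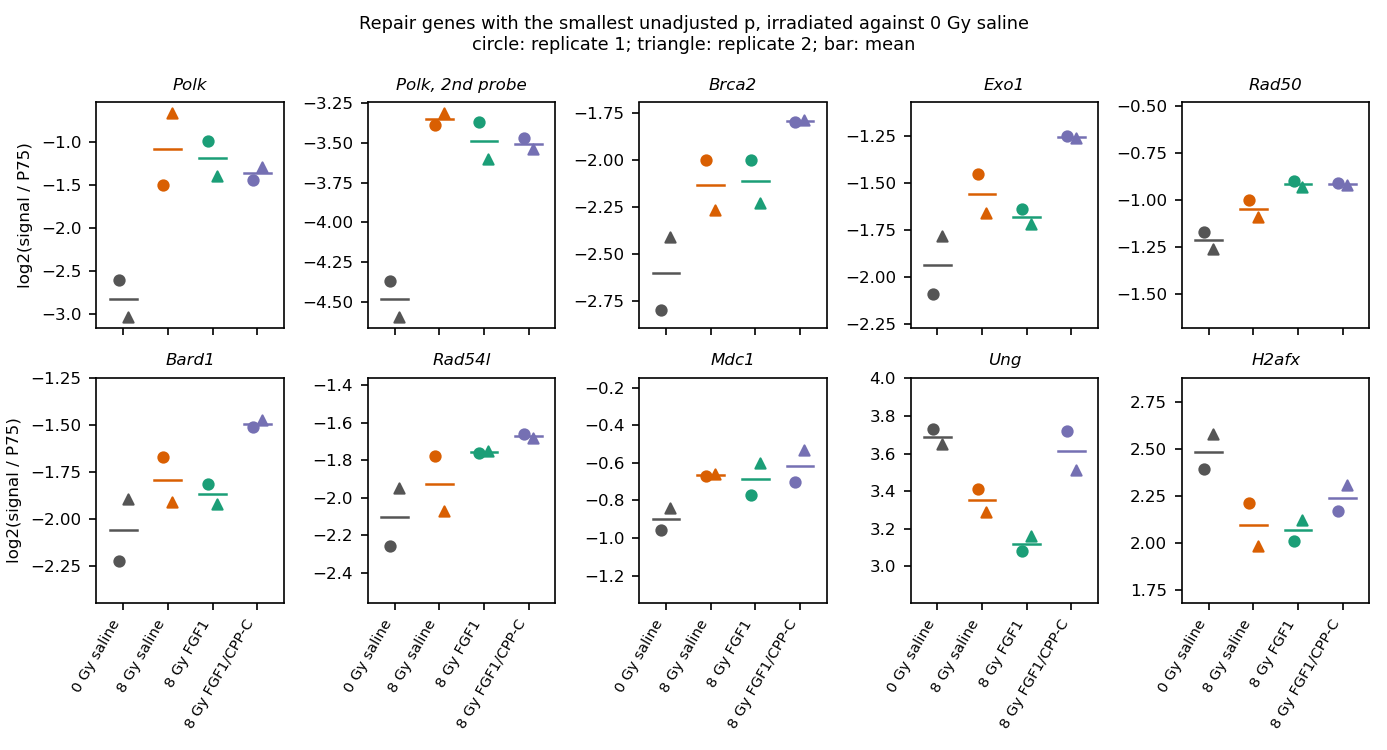
Levels by array, as log2 of the signal over the array's 75th percentile (P75), of Polk by 2 probes and of the 8 other members with the smallest unadjusted p for irradiation. Circles are replicate 1, triangles replicate 2 and bars the group mean; both Polk probes separate the irradiated arrays from the controls, Brca2, Exo1, Bard1 and Rad54l are highest with FGF1/CPP-C, and Ung is near control there.

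The break sensing complex tethers DNA ends and switches on Atm. Rad50, its coiled-coil ATPase, read 44.4% and 41.8% in 0 Gy saline, 50.2% and 47.1% in 8 Gy saline, 53.7% and 52.6% after FGF1, and 53.3% and 52.7% after FGF1/CPP-C. All irradiated arrays lay above both controls by a small margin. The difference was 1.2-fold (0.26 ± 0.073, limma adjusted p = 0.129), alike on slide 1 (1.18-fold) and slide 2 (1.21-fold). The second Rad50 probe, further upstream, gave 1.02-fold, so the margin was seen with 1 of the 2 probes. Mre11a, the nuclease, was 1.14-fold the control and Nbn, the adaptor, 0.914-fold, neither passing (limma adjusted p = 0.413 and 0.611).

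The checkpoint kinases, which halt the cell cycle, showed no member that passed and a median log2 fold change of -0.081 over 5 tested. Atm was 0.923-fold the control, Atr 0.993-fold and Prkdc, the kinase of end joining, 0.945-fold. Chek2, the effector of Atm, was above both controls in all irradiated arrays, at 5.12% to 8.19% against 4.78% and 4.98%, and its 1.2-fold difference did not pass (limma adjusted p = 0.440). Its highest value lay in 8 Gy saline replicate 2, an antrum-high array. Chek1, the effector of Atr, read 1.61% in replicate 2 of the chimera group and 3.85% to 7.29% in the remaining 7 arrays, so its 0.809-fold mean difference has an interval from 0.328 to 2.00. Atm, Atr and Chek2 were among the 8 members that were higher in the antrum-high array of all 3 groups (Ddb2, Parp1, Polk, Trp53bp1 and Xrcc5 were the others), 23.5% of members against 17.1% of all genes. In 6 members that array was the lower one in all 3 groups (Fanca, H2afx, Lig4, Mre11a, Rad54l and Rnf8), 17.6% against 26.5%.

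At the chromatin around a break, H2afx, the histone variant whose phosphorylation marks the site, stood lower after irradiation without passing. It read 525% and 599% of the 75th percentile in 0 Gy saline, 463% and 393% in 8 Gy saline, 402% and 436% after FGF1, and 451% and 495% after FGF1/CPP-C. Every irradiated array lay below both controls. The mean was 0.782-fold the control (-0.35 ± 0.11, limma adjusted p = 0.143), 0.834-fold on slide 1 and 0.734-fold on slide 2. H2afx was lower in the antrum-high array of each of the 3 groups, and without these arrays the value was 0.763-fold.

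Mdc1, the scaffold that binds the marked histone, read 51.3% and 55.9% in 0 Gy saline, 62.9% and 63.2% in 8 Gy saline, 58.5% and 66.2% after FGF1, and 61.7% and 69.3% after FGF1/CPP-C. The irradiated arrays all lay higher, and in all 4 groups the array on slide 2 was above that on slide 1, as for 3.78% of all genes. The difference was 1.19-fold (0.25 ± 0.092, limma adjusted p = 0.210). Rnf8, the ubiquitin ligase recruited by Mdc1, was 1.11-fold the control and Trp53bp1, which steers breaks to end joining, 0.739-fold by its brightest probe and 0.992-fold by its second, with limma adjusted p of 0.318 and 0.322 for the brightest probes.

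End joining seals breaks without a template. Its 4 members had a median log2 fold change of -0.13 and none passed. Xrcc6 and Xrcc5, the subunits of the Ku ring that caps ends, were 0.877-fold and 0.871-fold the control, while Xrcc4 and Lig4, the ligase complex, were 0.950-fold and 1.11-fold. The smallest limma adjusted p of these 4 was 0.247, for Xrcc6.

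Base excision and single-strand break repair deals with damaged single bases. Ung removes uracil from DNA. Its level was 1330% and 1250% of the 75th percentile in 0 Gy saline, 1070% and 977% in 8 Gy saline, 845% and 892% after FGF1, and 1320% and 1140% after FGF1/CPP-C. The saline and FGF1 arrays lay below both controls, and the chimera arrays overlapped them. The mean of the irradiated groups was 0.797-fold the control (-0.33 ± 0.092, limma adjusted p = 0.128), alike on both slides (0.797-fold and 0.796-fold). For FGF1 alone it was 0.672-fold (limma adjusted p = 0.0908).

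The sequence of the Ung probe limits that reading and is shown in its first 30 of 60 bases, with capitals for the start of a GT repeat.
Ung probe: tatcctttagagttagagatttcaaaGTGT
The repeat starts at base 27 and runs for 34 bases to the end of the probe. Among 39429 probes 13 carry a dinucleotide repeat at least as long, and no other member's probe carries one over 6 bases. Whether the signal comes from Ung was not tested.

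Ogg1, which removes oxidised guanine, was 1.02-fold the control (interval 0.906 to 1.16), and Parp1, which senses nicks, was 0.738-fold (interval 0.535 to 1.02, limma adjusted p = 0.266) with all irradiated arrays below both controls. Of the Fanconi genes, which repair crosslinks, Fanca of the core complex was 0.987-fold, and Fancd2, the clamp it modifies, was well above background on 3 arrays only, with 20.5 to 45.3 intensity units over all 8.

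Taking each irradiated group alone against 0 Gy saline, no member passed limma's adjusted threshold. For 8 Gy saline, 0.409% of genes passed, and 3 members were higher and 2 lower at an unadjusted p under 0.05 (background 4.88% and 7.46%). For FGF1 it was 0.895% of genes, with 4 members higher and 2 lower unadjusted (background 7.84% and 8.84%). For FGF1/CPP-C 2.02% of genes passed, with 9 members higher and 2 lower unadjusted (background 11% and 11.2%). These comparisons share the 2 control arrays. In the chimera group all 8 tested recombination genes lay above control, where 47% of all genes did, with a median log2 fold change of 0.30 beside -0.023 over all genes. Other lists stood higher in the same comparison: 14 of 17 DNA replication genes were higher at an unadjusted p under 0.05 (median 0.41) and 4 of them passed. So were 6 of 9 absorptive enterocyte genes (median 0.73) and 3 of 5 Paneth cell genes (median 0.55), of which none passed. All 10 stomach antrum genes lay below control, 2 of them passing, and of 14 mitosis genes 7 passed lower. The part of these lists in the recombination values was not tested. Among members Exo1 came nearest to the threshold, at 1.60-fold (0.68 ± 0.14, limma adjusted p = 0.0695). Brca2 at 1.75-fold (0.81 ± 0.17, limma adjusted p = 0.0770) and Polk at 2.74-fold (limma adjusted p = 0.0770) followed.

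The pretreatments were then compared among irradiated tissues, which asks whether either protein altered repair transcripts once the beam had been given. No member passed in any of the 3 comparisons. FGF1 against 8 Gy saline had 0 of 21784 genes called by limma (0%), and 219 higher and 164 lower at an unadjusted p under 0.05, of which 1, Ogg1, was a member (background 1.01% higher and 0.753% lower). FGF1/CPP-C against 8 Gy saline had 2 genes called (0.00918%), with 1 member higher and 2 lower unadjusted (background 7.36% and 4.55%), and FGF1/CPP-C against FGF1 had 2 called (0.00918%), with 4 members higher and 1 lower unadjusted (background 5.49% and 3.55%). A gene that misses the threshold here is not shown to be equal, and the intervals below give the range left.

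Fanca, of the Fanconi core complex, had the highest fold change of any tested member between the chimera and 8 Gy saline. Its level was 77.2% and 79.4% of the 75th percentile in 0 Gy saline, 71.8% and 58.6% in 8 Gy saline, 68.3% and 71.2% after FGF1, and 100% and 104% after FGF1/CPP-C. The 2 chimera arrays lay above the other 6. Against 8 Gy saline the difference was 1.57-fold (interval 1.28 to 1.93, 0.65 ± 0.12, unadjusted p = 0.00157, limma adjusted p = 0.230), and against FGF1 1.46-fold (interval 1.19 to 1.79, limma adjusted p = 0.290). It was 1.39-fold and 1.78-fold on the 2 slides against saline, and 1.46-fold on both against FGF1. Fanca was lower in the antrum-high arrays of all 3 groups, and the chimera group held no such array. Without those arrays the difference from saline was 1.42-fold and from FGF1 1.43-fold, with antrum transcripts still present in the remaining saline and FGF1 arrays.

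Ogg1 went the other way between the proteins. It read 44.8% and 42.9% in 0 Gy saline, 43.9% and 42.3% in 8 Gy saline, 53.9% and 51.1% after FGF1, and 39.4% and 40.8% after FGF1/CPP-C. The FGF1 arrays were the highest and the chimera arrays the lowest of the 8. FGF1 stood 1.22-fold above 8 Gy saline (interval 1.05 to 1.41, unadjusted p = 0.0187, limma adjusted p = 1), and the chimera at 0.764-fold of FGF1 (interval 0.658 to 0.888, unadjusted p = 0.00468, limma adjusted p = 0.303). Within the slides the chimera was 0.732-fold and 0.798-fold of FGF1.

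Ung, by the repeat-bearing probe, was 1.41-fold higher after FGF1/CPP-C than after FGF1 without passing (interval 1.17 to 1.71, unadjusted p = 0.00445, limma adjusted p = 0.302), and Exo1 was 1.34-fold (interval 1.06 to 1.69, limma adjusted p = 0.461). For both genes the chimera arrays lay above both FGF1 arrays. Against 8 Gy saline the 8 recombination genes all lay above it with the chimera, where 56.6% of all genes did, with a median log2 fold change of 0.26 beside 0.036 over all genes, and none passed. FGF1 gave a median of 0.025 for the same genes, 5 above saline and 3 below (background 53.9% above). T cell and intraepithelial lymphocyte genes also stood higher in the comparison of the chimera with 8 Gy saline, with all 11 measured above it, 8 at an unadjusted p under 0.05, a median log2 fold change of 0.78 and 0 passing. Paneth cell genes were higher in 5 of 5 at an unadjusted p under 0.05 (median 0.70) and absorptive enterocyte genes in 6 of 10 (median 0.55), while smooth muscle genes were lower in 5 of 7 (median -0.50), and none of these passed. All 10 stomach antrum genes lay lower, 2 of them passing. The medians of mitosis genes (0.23, all 14 above saline) and DNA replication genes (0.20, 16 of 17 above) were near that of recombination. The part of these lists in the recombination values was not tested.

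Xrcc6 read 321% and 316% in 0 Gy saline, 319% and 289% in 8 Gy saline, 287% and 270% after FGF1, and 253% and 262% after FGF1/CPP-C, the chimera arrays being the lowest. The chimera stood at 0.846-fold of 8 Gy saline (interval 0.720 to 0.995, limma adjusted p = 0.412). Xrcc5, its Ku partner, read 50% and 44.8%, 40.3% and 62.5%, 48.0% and 37.1%, and 30.4% and 36% in the same order of groups. The chimera arrays were again the lowest and stood at 0.659-fold of 8 Gy saline (interval 0.437 to 0.994, limma adjusted p = 0.414). In Xrcc5 the antrum-high array was the higher of each pair that held one, and without those arrays the ratio was 0.821-fold.

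Rnf8 was highest with the chimera, at 343% and 353% against 297% and 300% in 8 Gy saline, 303% and 306% after FGF1, and 271% and 299% in the controls. That was 1.17-fold over 8 Gy saline (interval 0.997 to 1.36, limma adjusted p = 0.423). Palb2 read 3.32% and 3.87% in 8 Gy saline, 4.13% and 4.83% after FGF1, 4.80% and 3.81% after the chimera, and 4.27% and 4.07% in the controls, a 1.25-fold difference of FGF1 from saline (interval 0.956 to 1.63, limma adjusted p = 1). A second Palb2 probe gave 1.07-fold for FGF1 and 1.28-fold for the chimera against 8 Gy saline, where the brightest gave 1.19-fold for the chimera. Rad50, given above, was 1.09-fold in FGF1 against saline (interval 0.941 to 1.27, limma adjusted p = 1). Polk did not follow the pretreatments beyond its spread, at 0.925-fold with FGF1 and 0.817-fold with the chimera against 8 Gy saline.

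**Figure D4:**
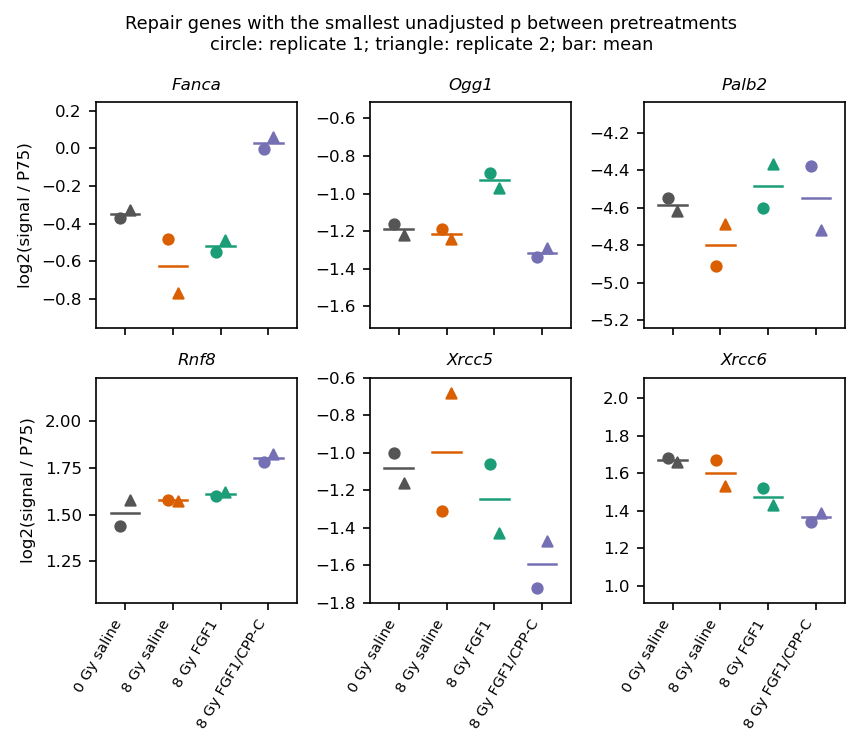
Levels by array, as log2 of the signal over the array's 75th percentile (P75), of 6 members with small unadjusted p between pretreatments. Circles are replicate 1, triangles replicate 2 and bars the group mean; the FGF1/CPP-C arrays are the highest of the 8 for Fanca and Rnf8 and the lowest for Ogg1, Xrcc5 and Xrcc6, and none of these differences passed.

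Repair genes outside the 36 place these values in the wider pathway. From a list of 108 further repair genes 106 were tested. In the mean of the irradiated groups 6 of the 106 passed, all higher, against the 2.43% of all genes given above, with a median log2 fold change of 0.049. One passed for 8 Gy saline alone, 3 for FGF1 and 7 for FGF1/CPP-C, all of them higher, and no gene of this list passed between pretreatments. The counts for the mean, for FGF1 and for FGF1/CPP-C include Clspn. Its probe passed the filter on dim probes only through the FGF1 and FGF1/CPP-C groups, where it was high. The calls of Clspn are therefore not independent of the filter.

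Mgmt, which lifts alkyl groups off guanine, had the highest fold change of the list. It read 46.1% and 32.3% in 0 Gy saline and 143% to 182% in the 6 irradiated arrays, a 4.04-fold difference (2.01 ± 0.16, limma adjusted p = 0.00847). Mgmt was the one gene of the list to pass in every irradiated group, at 4.18-fold for saline (limma adjusted p = 0.0263), 3.99-fold for FGF1 (limma adjusted p = 0.0230) and 3.94-fold for the chimera (limma adjusted p = 0.0215).

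Ercc5, the nuclease that cuts on one side of a bulky lesion, rose 1.73-fold (limma adjusted p = 0.0161), from 30.5% and 32.5% in the controls to between 51.4% and 56.8%. A second Ercc5 probe disagreed. It read 4.34% and 7% in the controls and 5.46% to 6.32% in the irradiated arrays, all between the controls, a 1.08-fold difference. With the mean of both probes the log2 fold change was 0.45 and the call was lost (limma adjusted p = 0.115), as it was with the series matrix values (0.0626).

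Msh6, of mismatch recognition, rose 1.64-fold (limma adjusted p = 0.0275), and Timeless, of the replication fork, rose 1.46-fold (limma adjusted p = 0.0329). Clspn, the adaptor that lets Atr activate Chek1, was not well above background in 0 Gy saline. Its signal was 1.77-fold the control with FGF1 (limma adjusted p = 0.0388) and 2.01-fold with the chimera (limma adjusted p = 0.0215). The control signal was above the lowest signal well above background, so these folds are point estimates and not bounds. Over the alternatives the log2 fold change of Clspn was as low as 0.055 with FGF1 and 0.22 with the chimera. Fanci, the partner of Fancd2, passed with the chimera alone at 1.63-fold (limma adjusted p = 0.0492), and a difference from the other groups was not called. E2F words lay in the promoter windows of Clspn and Msh6, and not in those of Mgmt, Ercc5, Timeless and Fanci. That is 2 of 7 windows (28.6%), against 2.26% of all windows. Without the antrum-high arrays Mgmt was 4.63-fold the control, Ercc5 1.63-fold, Msh6 1.59-fold and Timeless 1.41-fold, with no call in that fit. The mean calls of Ercc5, Msh6 and Timeless were each lost when any single 0 Gy saline, FGF1 or FGF1/CPP-C array was left out (limma adjusted p from 0.0579 to 0.214), and that of Mgmt without 0 Gy saline replicate 2 (0.0790). That of Timeless was also lost with the replicate block (0.0536). With the series matrix values the mean calls of Msh6 (limma adjusted p = 0.0677) and Timeless (0.084) were lost as well, and that of Mgmt held (0.0176). The mean call of Clspn (limma adjusted p = 0.0146) was lost without either 0 Gy saline array (0.128 and 0.14), without either FGF1 array (0.06 and 0.0602), with trend and robust moderation (0.0551) and with normexp background correction, where its log2 fold change was 0.10 (0.517). For Mgmt, Ercc5, Msh6 and Clspn, calls in single groups held in fewer settings than the mean call. For Timeless the chimera call passed in 8 of 18 alternatives and the mean call in 8 of 17. For FGF1 that of Clspn passed in 2 of 16 alternatives, and those of Mgmt for saline, FGF1 and the chimera in 5, 7 and 9 of 18. For the chimera that of Clspn passed in 5 of 16 and that of Fanci in 5 of 18. The call of Ercc5 passed in 4 of 18 for FGF1 and 7 of 18 for the chimera, and that of Msh6 in 7 of 18 for the chimera.

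**Figure D5:**
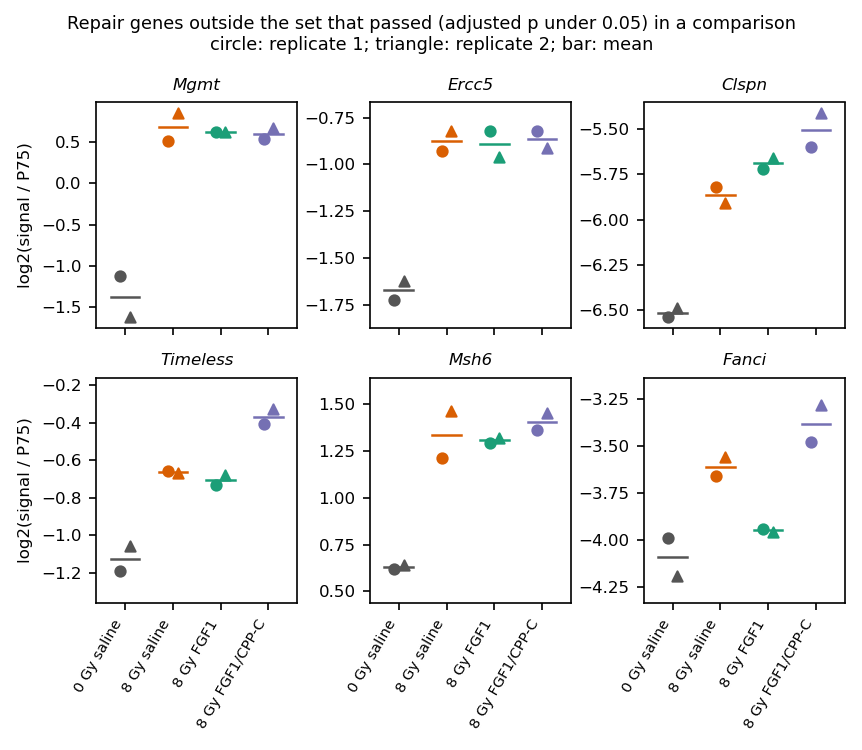
Levels by array, as log2 of the signal over the array's 75th percentile (P75), of 6 repair genes outside the 36 that passed in a comparison with 0 Gy saline. Circles are replicate 1, triangles replicate 2 and bars the group mean; in Mgmt, Ercc5, Clspn, Timeless and Msh6 all 6 irradiated arrays lie above the 2 controls, and Fanci is highest with FGF1/CPP-C.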

How the data were processed

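Total RNA was labelled with Cy3 and hybridised to 8 Agilent 1-colour arrays, per the labels' protocols. The deposited values are intensity units on a linear scale, read with Agilent Feature Extraction 9.5.3.1, per the submitters' processing notes, with background subtracted and no scaling between arrays, per the file headers; probe coordinates are of mm9. The deposited series matrix gives the same intensity values where it has one (ratio 1), and leaves 30.0% to 33.7% of probes per array blank.

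Each processed signal was divided by its array's 75th percentile, floored at -6.95 on the log2 scale and logged. Control spots (1377 per array) and outlier spots were left out, and spots of a probe were averaged. Probes stayed in where some group had both its arrays well above background (27469 of 39429), and a gene was read by its brightest kept probe. RefSeq names came by accession for 28330 probes and by symbol for 2204, and 8895 kept the name in the files. Group means were fitted to all 8 arrays with limma 3.58.1 in R 4.3.3 (package data.table, version 1.17.8), Benjamini-Hochberg adjusted over all genes of a comparison, threshold 0.05. The fit was tested on simulated data. Figures used matplotlib 3.10.9 in Python 3.11.15.

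The members, roles and lists were chosen with earlier results of these data known, so counts over them are descriptions. Named with values by array were members that passed, the 8 others of smallest unadjusted p for irradiation, and the 4 of smallest unadjusted p in each comparison among irradiated groups; of the other repair genes, up to 6 per direction that passed in each comparison. For FGF1/CPP-C against 0 Gy saline 7 passed, and 6 are named; 1 gene is not reported here. Slide 1 carried the 4 arrays numbered 1 and slide 2 those numbered 2, so a block on the replicate number is a block on the slide. Deviations of same-numbered arrays correlated between -0.519 and 0.536 over the 6 pairs of groups, above 0.1 in 3 of them and below 0 in 2, both with 8 Gy saline. As not every pair was above 0.1, the numbers were not taken to pair the samples.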

Additional observations from a re-analysis of the deposited data

How the results depend on the processing

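Each count of members passing was recomputed under quantile normalisation, normexp, the series matrix values, averaging each gene's kept probes, 2 filters on dim probes, fits to only the groups compared, a replicate block, trend and robust moderation, and without each array, and, chosen after seeing the data, without the 3 antrum-high arrays. In 5 of the 7 comparisons the count of 0 did not change. For the mean of the irradiated groups the count fell from 1 (Polk) to 0 with the series matrix values (limma adjusted p = 0.0724, 146 genes called instead of 528; blank probes there leave 21086 genes tested and move each array's percentile), with no filter on dim probes (0.0899), with the replicate number as a block (0.0681, 248 genes called) and without the 3 antrum-high arrays (0.278, 0 genes called). Without single arrays it ranged from 0 to 1. For FGF1/CPP-C against 0 Gy saline it rose from 0 to 1, Polk, with the mean of the kept probes, and ranged from 0 to 1 without single arrays. The log2 fold change of Polk in the mean comparison lay between 1.32 and 1.83 over the 17 alternatives and passed in 7. No named gene changed sign where its value was called. Across the named genes and alternatives 805 values kept their side of the threshold, 162 lost their call and 3 gained one. The 805 include values called in neither fit, so they do not give the share of calls that held. The 162 can only come from values called in the main fit. The replicate block changed no other count of members. The number of arrays, 2 per group, limits every value, and probes near background (Rrm2b, Fancd2, Clspn, Brca1) limit those genes.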
